A study of Homo sapiens with 9 samples.

Results

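DNA repair genes in the Z138 cell line were followed across loss and return of the transcription factor SOX11. The set held 55 genes, chosen by name as known members of the repair pathways, by a rule that used no measured value but with earlier results of these data known, out of 16586 genes in the expression table. All 55 were in the table and all 55 passed the filter on low values (a CPM, the read count scaled to library size, of 1 or more in 3 or more libraries), as did 11542 genes in all. Z138 is an established mantle cell lymphoma line, grown from a B cell cancer that cyclin D1 drives, and SOX11 is a developmental transcription factor that most of these tumours express and normal B cells do not. Polyadenylated RNA was sequenced from 3 groups of 3 libraries: the parental line with its own SOX11 (wild type), the same line with SOX11 knocked out (knockout), and the knockout line with SOX11 put back (rescue). Both derived groups therefore carry the knockout, and the labels name no drug, irradiation or other agent in any group. The sources used here do not say how the gene was disrupted, how SOX11 was returned or whether each derived line is 1 clone. Each group had 1 library in each of 3 batches, a label that is not explained further.

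Cells repair DNA through pathways that each deal with a kind of lesion. Kinases such as ATM and ATR sense damage and call in adaptors, double-strand breaks are mended by homologous recombination from a sister copy or by direct end joining, and altered bases, bulky adducts, mispaired bases and crosslinks each have their own excision machinery. B cells use the same enzymes on purpose: end joining assembles the antibody genes, and uracil excision and mismatch repair take part in their later diversification. ATM is among the genes most often lost in mantle cell lymphoma.

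To check the labels, SOX11 itself was read first. It was at 3800, 3845 and 3003 normalized counts in wild-type libraries 1, 2 and 3, at 901, 1335 and 862 in the knockout and at 12818, 13849 and 12715 in the rescue. The 3 groups did not overlap, and the exact two-sided permutation test gave its smallest possible p of 0.1 in each comparison. Its mean in the knockout was 29.1% of wild type, and the rescue held 3.70-fold the wild-type count. Normalized counts are reads scaled to a common library size, recovered from the deposited log2 values; the estimated depth was 30800000 to 40800000 reads per library. The B cell gene MS4A1 (CD20) had group means of 20715, 22484 and 21576 normalized counts and cyclin D1 (CCND1) of 128819, 121398 and 107938 in wild type, knockout and rescue, as the label of the line requires. Some others of the 10 B cell and mantle cell lymphoma markers listed moved more. PAX5 was at 10832, 7474 and 12363, CD22 at 306.5, 459 and 431, CD37 at 365, 252 and 488.5 and BLK at 699, 906 and 504.5. Of the 10, SOX11 included, limma called 10% in knockout against wild type, 40% in rescue against knockout and 20% in rescue against wild type. Over all genes tested these shares were 12.7%, 22.1% and 4.07%. Summed counts of 8 T and NK cell markers ranged over 620 to 789 in wild type, 1749 to 1822 in knockout and 1208 to 1365 in rescue libraries, and limma called 4 of the 5 that passed the filter higher in the knockout than in wild type. These were CD4 (mean 179 in wild type, 846 in knockout and 363 in rescue), PRF1 (95.8, 314 and 422), CD3E (37.0, 83.2 and 79.9) and NKG7 (12.6, 43.0 and 28.5), while CD3G (376, 497 and 390) was not called. CD8A (11.6, 1.5 and 4.2), CD3D (3.5, 2.2 and 3.5) and TRBC1 (1.0, 2.0 and 1.6) lay below the filter. Of these, CD8A and CD3D were lowest in the knockout. The part of these markers in the results was not tested.

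Few repair genes were called, and none of the 55 differed by more than 1.40-fold between group means. Between knockout and wild type, RAD50 and ERCC5 were higher and MGMT and SETMAR were lower in the knockout, 4 of 55 genes or 7.27%, where 12.7% of all genes tested were called (5.36% higher, 7.37% lower). Between rescue and knockout, SETMAR and APEX1 were higher and WRN was lower in the rescue, 3 of 55 or 5.45%, against 22.1% of all genes (11.5% higher, 10.7% lower). Between rescue and wild type only MGMT was called, lower in the rescue, which is 1.82% of the members against 4.07% of all genes (2.30% higher, 1.78% lower). Calls are at an adjusted p (Benjamini-Hochberg over all 11542 genes) below 0.05 in limma, a linear model with a variance estimate shared across genes. Unless a block or other alternative is named, they come from the fit with no term for batch. With the batch number as a block, limma called 9 of the 55 in the first comparison (21.5% of all genes), 9 in the second (31.2%) and 1 in the third (8.06%). The first and second comparisons share the knockout libraries, so their values are given side by side and not as separate evidence.

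The median log2 difference over the 55 genes was 0.00 for knockout against wild type, -0.02 for rescue against knockout and 0.01 for rescue against wild type, and over all genes tested it was 0.01, -0.01 and 0.00. Higher and lower values were about equally frequent, 28 against 27, 26 against 29 and 28 against 27. Most members are well expressed, so they were also set beside the 8265 genes at or above the level of the lowest member. Of those, 12.6%, 18.2% and 6.21% differed by more than 1.25-fold between group means in the 3 comparisons in this order, while 3, 5 and 1 of the 55 repair genes did (5.45%, 9.09% and 1.82%). At an unadjusted p below 0.05, 13, 13 and 7 repair genes passed (23.6%, 23.6% and 12.7%), against 26.6%, 34.3% and 16.2% of all genes. Groups of 3 libraries did not overlap for 15 members in the first comparison and 15 in the second (27.3% each, against 29.5% and 41.8% of all genes) and for 10 in the third (18.2% against 20.8%).

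The data also bound what could have been missed. In a fit on log2(CPM + 1), the 95% interval of the fold change lay within 2-fold either way for all 55 genes in all 3 comparisons. It lay within 1.5-fold for 50, 51 and 52 of them. The genes with a wider interval were ATM, BRCA2, RAD52, ERCC4 and MGMT in the first comparison, ATM, BRCA2, SETMAR and ERCC4 in the second, and RAD52, ERCC4 and MGMT in the third. Only 29, 29 and 37 genes had an interval within 1.25-fold, so small changes could not be told from none for a large share of the set.

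**Figure D1:**
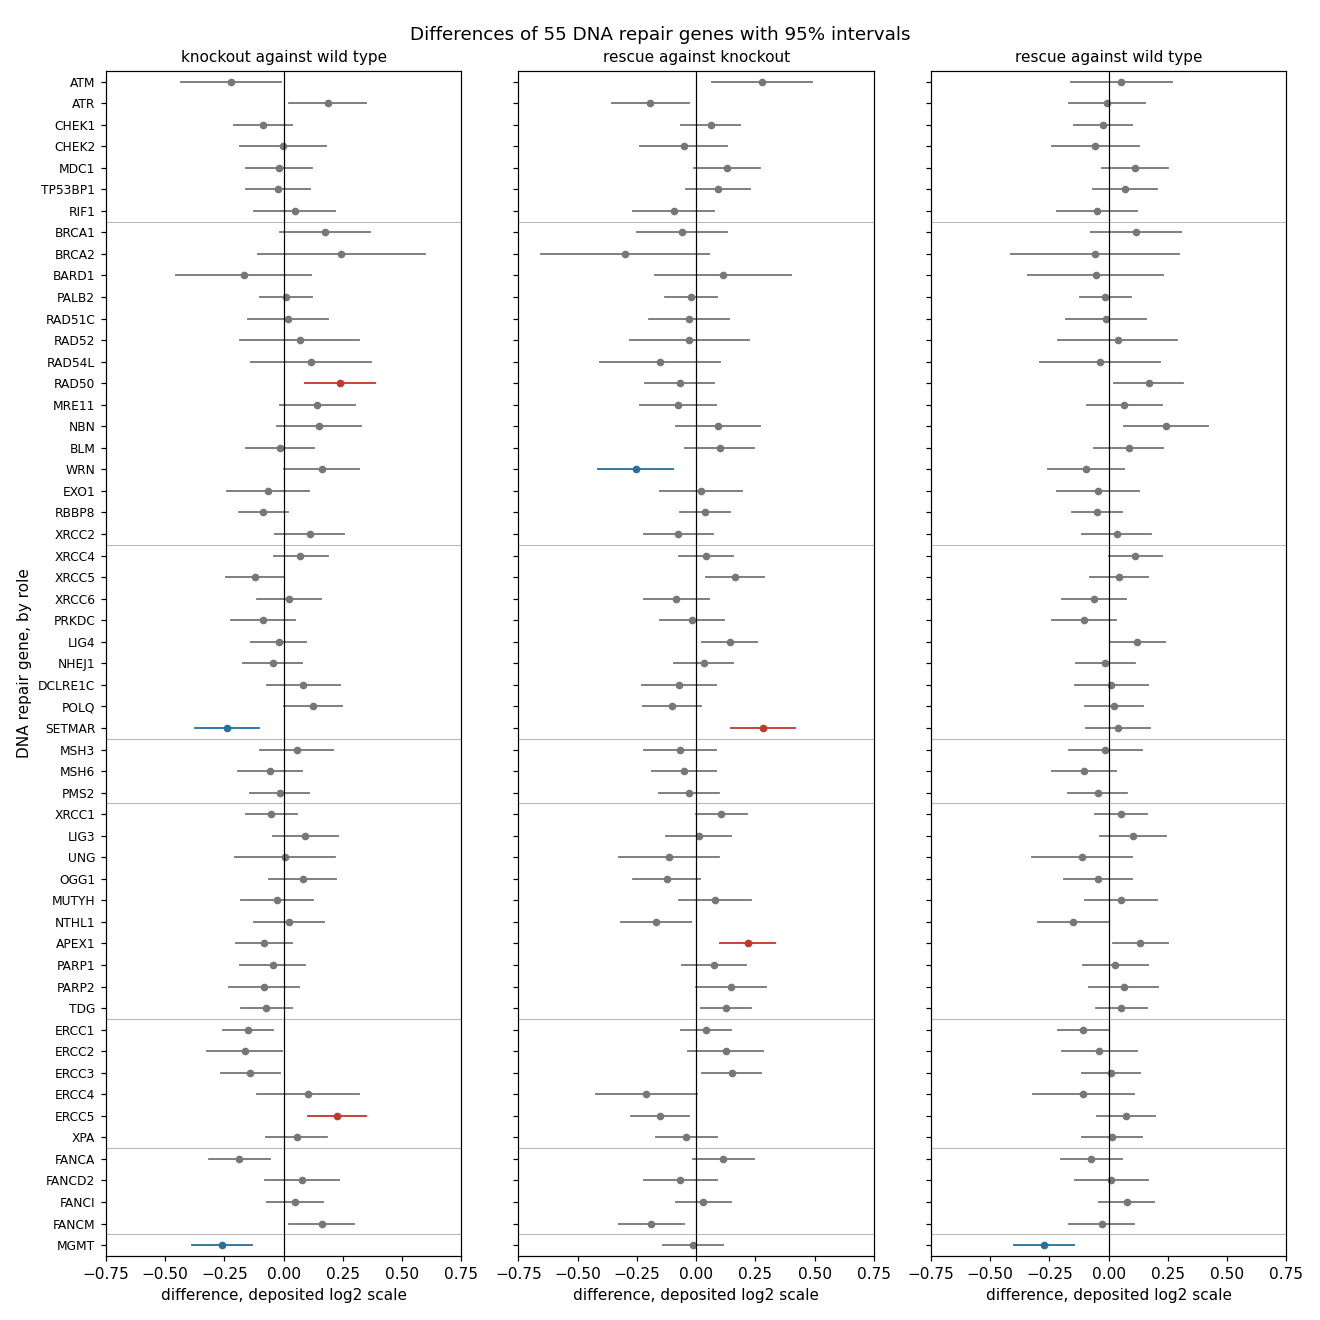
Log2 difference of each of the 55 repair genes in the 3 comparisons (horizontal axis), grouped by repair role, with 95% intervals and called genes in color. Differences lie between -0.30 and 0.28 in all 3 comparisons, and the called genes number 4, 3 and 1.

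Upstream sequence is shown for 4 of the 6 genes called in limma without the block, to set their promoters beside the SOX motif and common promoter elements. WRN had no promoter entry, and the ERCC5 window had no exon-free stretch long enough to show. The stretches are parts free of GENCODE 29 exons of the window from 250 bases before to 50 bases after the annotated start, on the + strand of GRCh38.p14, from RefSeq. They are SETMAR at chr3:4303119-4303303, MGMT at chr10:129466991-129467183, RAD50 at chr5:132556839-132556937 and APEX1 at chr14:20455106-20455190. The first, second and last of these end just before the GENCODE start of their gene, whereas the RAD50 stretch is upstream of the RefSeq start but inside the longer span that GENCODE gives RAD50. Capitals mark the GC box GGGCGG and the NF-Y motif CCAAT on either strand.
SETMAR: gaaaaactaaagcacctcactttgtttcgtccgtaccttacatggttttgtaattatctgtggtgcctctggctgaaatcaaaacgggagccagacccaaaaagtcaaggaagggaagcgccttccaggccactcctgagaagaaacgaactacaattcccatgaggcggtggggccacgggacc
MGMT: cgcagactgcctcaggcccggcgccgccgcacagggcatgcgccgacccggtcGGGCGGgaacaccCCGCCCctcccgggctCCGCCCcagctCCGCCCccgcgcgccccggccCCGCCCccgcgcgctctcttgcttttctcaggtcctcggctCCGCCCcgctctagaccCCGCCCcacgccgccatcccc
RAD50: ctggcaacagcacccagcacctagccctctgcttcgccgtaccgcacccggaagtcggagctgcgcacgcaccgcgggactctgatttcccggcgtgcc
APEX1: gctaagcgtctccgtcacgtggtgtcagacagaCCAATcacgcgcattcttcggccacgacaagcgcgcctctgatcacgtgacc
The MGMT stretch held 7 GC boxes and the APEX1 stretch 1 CCAAT. The SETMAR and RAD50 stretches held no exact match to any motif searched, although the whole RAD50 window, of which only these bases are shown, has a GC box. The SOX motif was searched only as AACAAT, so other forms of it may be present in these stretches and were not sought.

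Promoters in the RefSeq table matched 50 of the 55 genes (74 promoters). NBN, WRN, XRCC5, PRKDC and FANCI had no entry. The SOX motif in the only form searched, AACAAT on either strand, was in 1.35% of the members' promoters (that of PARP1 alone) and in 10.1% of all 35116 promoters. The E2F motifs TTGGCGC and TTCGCGC were in 17.6% against 5.06%, from BLM, ERCC1, ERCC3, EXO1, FANCA, MDC1, MSH3, MSH6, OGG1, TDG, UNG and XRCC6, none of them called between genotypes in limma without the block, while ERCC1, ERCC3 and FANCA were called with it. The GC box was in 70.3% against 45%, CCAAT in 48.6% against 34.6%, and the cell cycle element TTTGAA in 10.8% against 15.2%. These shares describe letters in a window of 300 bases and not binding. All promoters were not matched to those of the members for base composition, so a difference in share may reflect composition alone, which was not tested.

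Levels differed far more between repair genes than between groups. By mean normalized count over the 9 libraries the highest was PARP1, the poly(ADP-ribose) polymerase that marks strand breaks. It was at 46440, 44837 and 40416 in wild type, 42973, 43719 and 40526 in knockout and 45247, 46138 and 42800 in rescue libraries. The lowest was OGG1, the glycosylase for oxidized guanine, at 448, 442 and 377 in wild type, 500, 408 and 519 in knockout and 453, 371 and 361 in rescue. The groups overlapped for both genes.

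Per kilobase of the longest annotated transcript, the highest levels were those of the Ku subunit XRCC6 (11548 normalized counts per kb), PARP1 (11035), the other Ku subunit XRCC5 (9072), the abasic-site nuclease APEX1 (5959) and the uracil glycosylase UNG (3868). The lowest were ERCC4, the nuclease XPF (67.6), OGG1 (86.6), ATM (90.7), the Fanconi helicase FANCM (127) and the nuclease MRE11 (158). The spread from highest to lowest was 171-fold. With median transcript lengths the highest were PARP1, XRCC5, PRKDC, XRCC6 and APEX1 and the lowest LIG4, OGG1, RAD52, XRCC4 and POLQ, so the scarce end of the order depends on the length used.

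**Figure D2:**
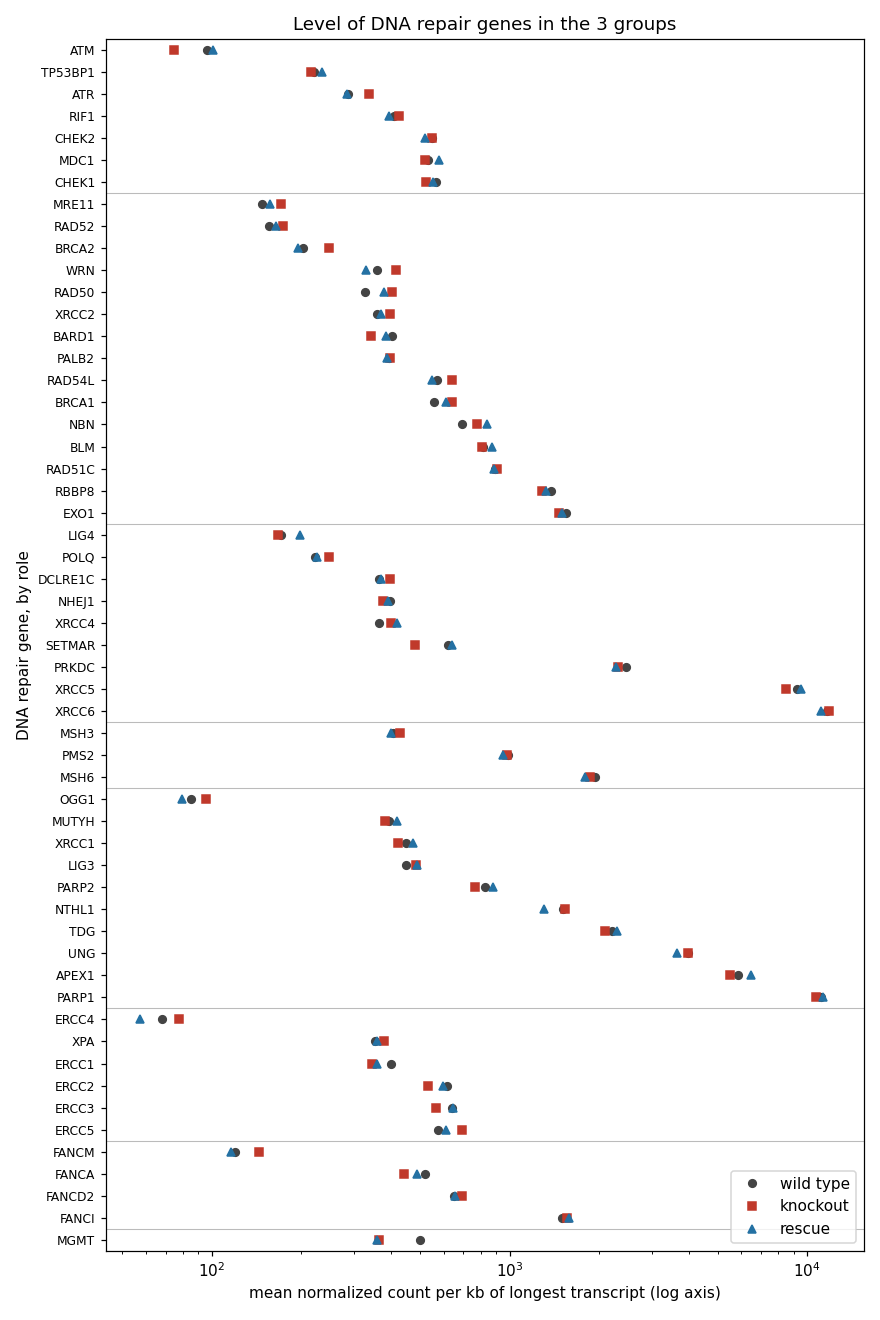
Normalized counts per kilobase of the longest transcript for the 55 repair genes (log axis), by repair role, with a point for each group mean. The groups lie close together within each gene, and the genes span 171-fold from ERCC4 to XRCC6.

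None of the 7 damage signalling genes was called in any comparison. ATM, the kinase that answers double-strand breaks, was at 1536, 935 and 1336 normalized counts in wild type, 930, 1024 and 999.8 in knockout and 1353, 1302 and 1311 in rescue libraries. The knockout lay below every rescue library and overlapped wild type only through wild-type library 2. Rescue against knockout gave 1.34-fold (log2 difference 0.28 ± 0.10, SE, adjusted p = 0.0618), and limma called it with the batch number as a block (adjusted p = 0.0336) and with only the groups compared. It was also called without wild-type library 1 or 2 or batch 2 (adjusted p from 0.00377 to 0.272 over 21 alternatives). Knockout against wild type gave -0.22 (adjusted p = 0.166) and was called without wild-type library 2, the low one, and without batch 2, where it reached -0.375 (adjusted p from 0.00320 to 0.725). ATR, the kinase of stalled forks, was at 2368 ± 304 (SD, n = 3), 2779 ± 165 and 2344 ± 131 in wild type, knockout and rescue. Its 2 differences from the knockout, 0.19 and -0.19 on the log2 scale, were not called (adjusted p = 0.131 and 0.0856) and were called with the block (adjusted p = 0.0302 and 0.0182 in limma). The second was also called with only the groups compared, without wild-type library 2 and without batch 2.

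The effector kinases and the adaptors varied less. CHEK1, the kinase below ATR, was at 2350 ± 118, 2176 ± 150 and 2296 ± 81.7, and CHEK2, the kinase below ATM, at 1409 ± 151, 1408 ± 200 and 1331 ± 136. MDC1, which binds marked chromatin at breaks, was at 4027 ± 416, 3954 ± 157 and 4396 ± 94.1. TP53BP1 and its partner RIF1, which protect broken ends from resection, gave adjusted p-values of 0.336 or higher in all 3 comparisons. CHEK2 has near-identical pseudogene copies, so its counts are uncertain.

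Homologous recombination held 15 genes, of which RAD50 was higher in the knockout against wild type and WRN lower in the rescue against knockout. RAD50 is the ATPase that bridges ends in the MRE11-RAD50-NBN complex (chromosome 5, 132556019 to 132646344, + strand, GRCh38, ENSG00000113522.14). It was at 2732, 2543 and 2889 normalized counts in wild type, 3609, 3012 and 3397 in knockout and 3135, 3342 and 2963 in rescue libraries. Every knockout and rescue library was above every wild-type library, and the knockout and rescue overlapped. The knockout was 1.23-fold wild type (log2 difference 0.24 ± 0.07, SE, adjusted p = 0.0376), and rescue against knockout was -0.07 (adjusted p = 0.509) and rescue against wild type 0.17 (adjusted p = 0.226). The RAD50 call was lost in limma when only the groups compared were fitted, when any of wild-type libraries 1 and 2, knockout libraries 1 and 3 or rescue library 1 was left out, and without batch 1 or batch 3, with adjusted p from 0.0170 to 0.323 over 21 alternatives. Its exons overlap those of AC116366.3 on the same strand and TH2LCRR on the other, and the sources used here do not say whether the counting used strand.

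The other subunits of that complex showed no call. MRE11, its nuclease, was at 1015 ± 148, 1178 ± 105 and 1084 ± 45.9 normalized counts in wild type, knockout and rescue. NBN, which links the complex to ATM, was at 3763, 2826 and 3598 in wild type, 3661, 4098 and 3713 in knockout and 4071, 4049 and 4239 in rescue libraries. Rescue was above wild type in all libraries (log2 difference 0.24, adjusted p = 0.147), the largest positive difference of any repair gene in that comparison.

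WRN is a RecQ helicase with an exonuclease. It was at 1989, 1692 and 1945 normalized counts in wild type, 2223, 2182 and 2102 in knockout and 1571, 1980 and 1601 in rescue libraries. All 3 knockout libraries were above all 6 others, and wild type and rescue overlapped. Rescue against knockout was -0.255 ± 0.072 (log2, SE; adjusted p = 0.0266), a group mean 1.26-fold lower, and knockout against wild type was 0.16 (adjusted p = 0.184). The call for WRN was lost in limma without knockout library 1, 2 or 3, without rescue library 1 or 3, and without batch 1 or batch 3, with adjusted p from 0.00390 to 0.238 over 21 alternatives.

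BRCA1 and its ring partner BARD1 varied with the batch more than with the genotype. BRCA1 was at 4459, 3584 and 4093 in wild type, 4857, 4071 and 5066 in knockout and 4731, 4062 and 4513 in rescue libraries, with the second library lowest in each group. BARD1 was at 1982, 2697 and 1961, 1801, 2211 and 1655, and 1773, 2678 and 1892, with the second library highest in each group. Knockout against wild type was 0.18 for BRCA1 (adjusted p = 0.225) and -0.17 for BARD1 (adjusted p = 0.459) and both were called with the block (adjusted p = 0.0189 and 0.0367 in limma).

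BRCA2, a mediator of strand exchange, was the most variable repair gene in the rescue libraries, with a coefficient of variation of 30.5%. It was at 2980, 2452 and 1862 in wild type, 2638, 3033 and 3247 in knockout and 2263, 3075 and 1659 in rescue. The groups overlapped, and its differences of 0.24 and -0.30 were not called in limma (adjusted p = 0.380 and 0.212). On the deposited log2 scale -0.30 was the lowest of any repair gene in rescue against knockout. In the fit on log2(CPM + 1) ERCC4 lay lower, at -0.404 against -0.369 for BRCA2. The BRCA2 difference reached -0.475 and a limma call without rescue library 2 (adjusted p = 0.0477, over a range of 0.0477 to 0.774). PALB2, which joins BRCA1 to BRCA2, kept group means of 1573 ± 29.5, 1587 ± 32.3 and 1554 ± 90.9. RAD54L, a DNA translocase of this pathway, ranged over 1534 to 2493 in the knockout alone.

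The 6 remaining recombination genes gave adjusted p-values of 0.285 or higher in every comparison. EXO1 and RBBP8, which resect ends, were at 5378 ± 499 and 4525 ± 93.7 in wild type, 5096 ± 373 and 4224 ± 220 in knockout and 5193 ± 517 and 4350 ± 21.8 in rescue. BLM, the dissolving helicase, RAD51C and XRCC2, which act in strand exchange, and RAD52, an annealing protein, had overlapping groups throughout.

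End joining held 9 genes, and SETMAR was the only one called. SETMAR is a fusion of a histone methyltransferase with a domesticated mariner transposase and takes part in end joining (chromosome 3, 4303304 to 4317567, + strand, GRCh38, ENSG00000170364.12). It was at 1400, 1704 and 1433 normalized counts in wild type, 1171, 1204 and 1161 in knockout and 1543, 1662 and 1499 in rescue libraries. Every knockout library was below every library of both other groups, and wild type and rescue overlapped. The knockout held 78.0% of the wild-type mean (log2 difference -0.24 ± 0.06, SE, adjusted p = 0.0250). The rescue was 1.33-fold the knockout (0.28 ± 0.06, adjusted p = 0.00749) and differed from wild type by 0.04 (adjusted p = 0.814). The call against wild type was lost in limma with only the groups compared, without wild-type library 2, without any single knockout library and without any batch (adjusted p from 0.00547 to 0.148 over 21 alternatives). The rescue call was lost only without batch 1 or batch 3 (adjusted p from 0.00146 to 0.0831). No exon of another gene overlaps SETMAR in the annotation.

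**Figure D3:**
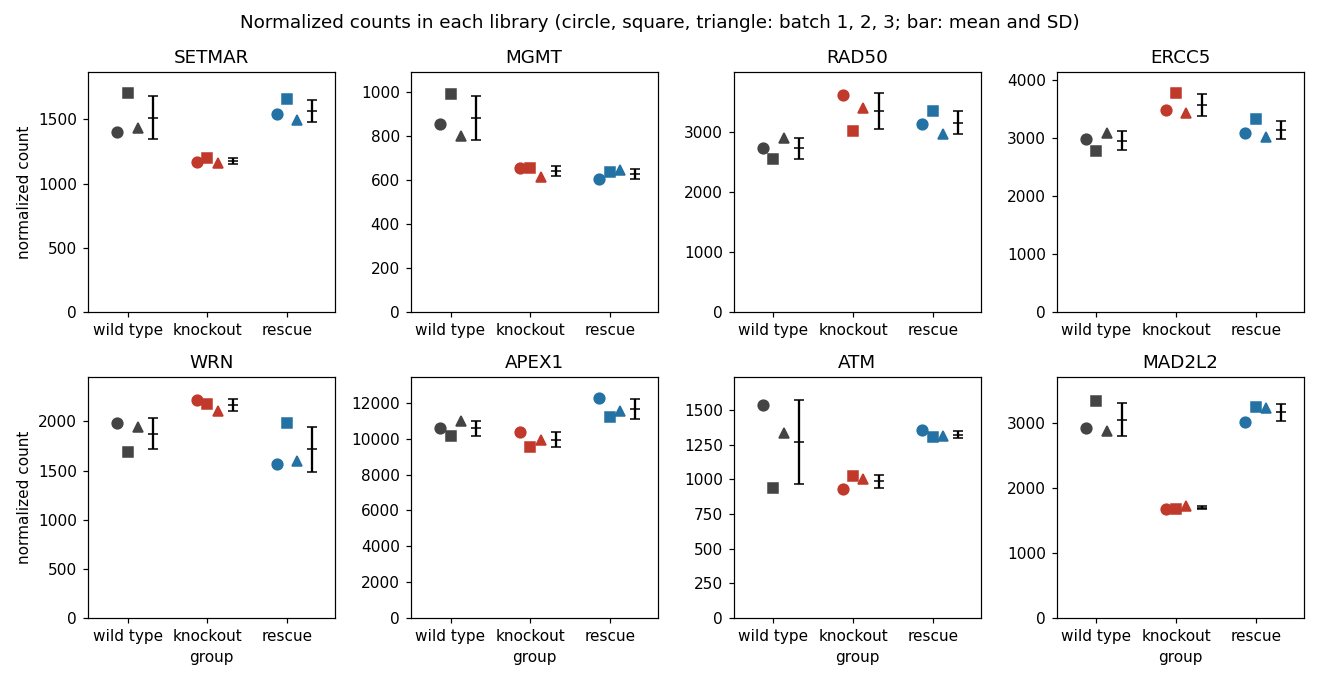
Normalized counts of the 6 called repair genes, and of ATM and MAD2L2, in each of the 9 libraries, by group, with a bar at the group mean and its SD. ATM is a member of the set that was not called in the fit with no term for batch. MAD2L2 is not a member and comes from the further genes of the same pathways. SETMAR is low in the knockout libraries only (1161 to 1204), MGMT is low in both knockout and rescue libraries (604 to 656), and WRN is high in the knockout libraries (2102 to 2223).

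The Ku subunits and the kinase they recruit were abundant. XRCC5 was at 34608, 33841 and 35618 in wild type, 32256, 33445 and 29987 in knockout and 37485, 35459 and 34371 in rescue libraries. All knockout libraries were below all others, and the 2 differences were -0.12 (adjusted p = 0.201) and 0.16 (adjusted p = 0.0587), the latter called with the block (adjusted p = 0.0296 in limma), on log2(CPM + 1), under quantile normalization and without wild-type library 2. XRCC6 was at 31557 ± 1141, 32069 ± 1412 and 30229 ± 2326, and PRKDC, the catalytic subunit of the DNA-dependent kinase, at 33152 ± 1816, 31176 ± 1490 and 30760 ± 1757, both with overlapping groups in all comparisons.

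The ligase complex was less abundant. LIG4, the end-joining ligase, was at 713 ± 44.2, 696 ± 42.7 and 825 ± 37.3 in wild type, knockout and rescue, with every rescue library above the others (0.14 against the knockout, adjusted p = 0.0827). XRCC4, its scaffold, was at 618 ± 27.2, 677 ± 44.8 and 713 ± 32.6 and NHEJ1 at 838 ± 67.3, 793 ± 60.1 and 823 ± 35.8, with no call. DCLRE1C, the nuclease Artemis that opens hairpins in antibody gene assembly, was at 1289 ± 142, 1398 ± 17.2 and 1304 ± 156. POLQ, the polymerase of microhomology joining, was at 2006 ± 64.6, 2247 ± 161 and 2045 ± 103 (0.12 against wild type, adjusted p = 0.185).

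None of the 3 mismatch repair genes was called. MSH6, which recognizes single mispairs, was at 14502 ± 1300, 13891 ± 84.5 and 13393 ± 582 normalized counts. MSH3, its counterpart for larger loops, was at 1661 ± 114, 1754 ± 171 and 1641 ± 150. PMS2, which cuts the new strand, was at 2829 ± 157, 2792 ± 201 and 2717 ± 70.7, and it too has near-identical pseudogenes.

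Of the 10 genes of base excision and single-strand break repair, APEX1 was called, in rescue against knockout. APEX1 cuts the backbone at abasic sites (chromosome 14, 20455191 to 20457772, + strand, GRCh38, ENSG00000100823.12). It was at 10586, 10157 and 11016 normalized counts in wild type, 10375, 9547 and 9938 in knockout and 12300, 11209 and 11563 in rescue libraries. Every rescue library was above every other library, and wild type and knockout overlapped. Rescue was 1.175-fold the knockout (log2 difference 0.22 ± 0.05, SE, adjusted p = 0.0138), 0.13 above wild type (adjusted p = 0.234), and the knockout differed from wild type by -0.08 (adjusted p = 0.364). The call was lost in limma without rescue library 1, without knockout library 2, and without batch 1 or batch 3 (adjusted p from 0.00254 to 0.111 over 21 alternatives). The gene PIP4P1 on the other strand shares exon sequence with APEX1.

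The glycosylases that feed APEX1 did not pass the threshold. UNG, which removes the uracil left by cytidine deaminases, was at 8897 ± 1301, 8891 ± 899 and 8134 ± 449. TDG, which removes thymine and oxidized methylcytosine, was at 7174 ± 310, 6783 ± 241 and 7467 ± 172, with every rescue library above every knockout library (0.13, adjusted p = 0.0897, called under quantile normalization). NTHL1, which removes oxidized pyrimidines, was at 1609 ± 81.9, 1643 ± 112 and 1392 ± 165, with rescue below both other groups in every library (-0.17 against the knockout, adjusted p = 0.0975), and was called with the block (adjusted p = 0.0186 in limma). MUTYH, which removes adenine opposite oxidized guanine, was at 759 ± 74.0, 734 ± 64.5 and 809 ± 103. XRCC1, the single-strand break scaffold, its ligase LIG3, PARP1 and PARP2 were not called in any comparison.

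Nucleotide excision repair held 6 genes, and ERCC5 was higher in the knockout. ERCC5, the nuclease XPG, cuts on the 3′ side of a bulky lesion (chromosome 13, 102807146 to 102876001, + strand, GRCh38, ENSG00000134899.22). It was at 2989, 2781 and 3091 normalized counts in wild type, 3488, 3779 and 3435 in knockout and 3081, 3319 and 3020 in rescue libraries. All knockout libraries were above all 6 others. The knockout was 1.21-fold wild type (log2 difference 0.22 ± 0.06, SE, adjusted p = 0.0219), and rescue was -0.15 against the knockout (adjusted p = 0.0733) and 0.07 against wild type (adjusted p = 0.578). The call was lost in limma without knockout library 1 or 2, without wild-type library 2 and without any batch (adjusted p from 0.0131 to 0.162 over 21 alternatives). ERCC5 shares exons on its own strand with BIVM and with the readthrough gene BIVM-ERCC5, so its counts may be split between them.

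The other excision genes lay below wild type in the knockout without passing the threshold, except XPA, the lesion verifier, and ERCC4. ERCC1, the partner of ERCC4, was at 1580, 1479 and 1547 in wild type, 1294, 1330 and 1333 in knockout and 1424, 1330 and 1374 in rescue. Wild type was above all 6 others (-0.15 for the knockout, adjusted p = 0.0604; with the block 0.0331 in limma). The helicases of the transcription factor TFIIH, ERCC2 and ERCC3, were at 2541 ± 197 and 2568 ± 34.9 in wild type, 2193 ± 111 and 2269 ± 118 in knockout and 2459 ± 286 and 2594 ± 201 in rescue. In rescue against knockout ERCC3 had an adjusted p of 0.0814 without the block and 0.0328 with it in limma, and it was also called without rescue library 2. ERCC4 was at 461, 334 and 582, 490, 575 and 506, and 299, 480 and 387, with the widest spread of any repair gene in wild type (27.0%).

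None of the 4 Fanconi genes was called. FANCA, of the core complex that recognizes crosslinks, was at 2843, 2722 and 2940 in wild type, 2629, 2287 and 2310 in knockout and 2815, 2511 and 2659 in rescue. The knockout lay below wild type in every library (-0.19, adjusted p = 0.0592, and with the block 0.0156 in limma), and it was also called under quantile normalization and without knockout library 1. FANCM, which anchors the complex to DNA, was at 888, 790 and 882, 974, 981 and 1113, and 911, 742 and 824, with the knockout above all others. Rescue against knockout was -0.19 and missed the threshold narrowly (adjusted p = 0.05004), and with the block it was 0.0185 in limma. It was also called under the stricter filter, 2 other scalings and 2 other variance priors, and without rescue library 1 or wild-type library 2. FANCD2 and FANCI, the pair that is ubiquitinated at crosslinks, were at 3391 ± 220 and 7107 ± 245 in wild type, 3623 ± 348 and 7372 ± 355 in knockout and 3425 ± 273 and 7537 ± 358 in rescue.

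MGMT is the only direct reversal enzyme among the 55 genes: it takes the methyl group off guanine and is used up in the process (chromosome 10, 129467184 to 129768007, + strand, GRCh38, ENSG00000170430.10). It was at 853, 991 and 799.6 normalized counts in wild type, 654, 656 and 614 in knockout and 604, 637 and 648 in rescue libraries. Every wild-type library was above all 6 others, and the knockout and rescue libraries overlapped. MGMT was 1.37-fold lower in the knockout than in wild type (log2 difference -0.26 ± 0.06, SE, adjusted p = 0.0125) and 1.40-fold lower in the rescue (-0.27, adjusted p = 0.0222), while rescue and knockout differed by -0.01 (adjusted p = 0.893). With the 95% interval of the rescue to knockout ratio at 0.861 to 1.14, a return of MGMT to its wild-type count in the rescue lies outside it. The knockout call was lost in limma without knockout library 3 or without any batch (adjusted p from 0.00545 to 0.116 over 21 alternatives). The rescue call was lost with only the groups compared, without any rescue library, without wild-type library 1 or 2 and without any batch (adjusted p from 0.00988 to 0.237).

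**Figure D4:**
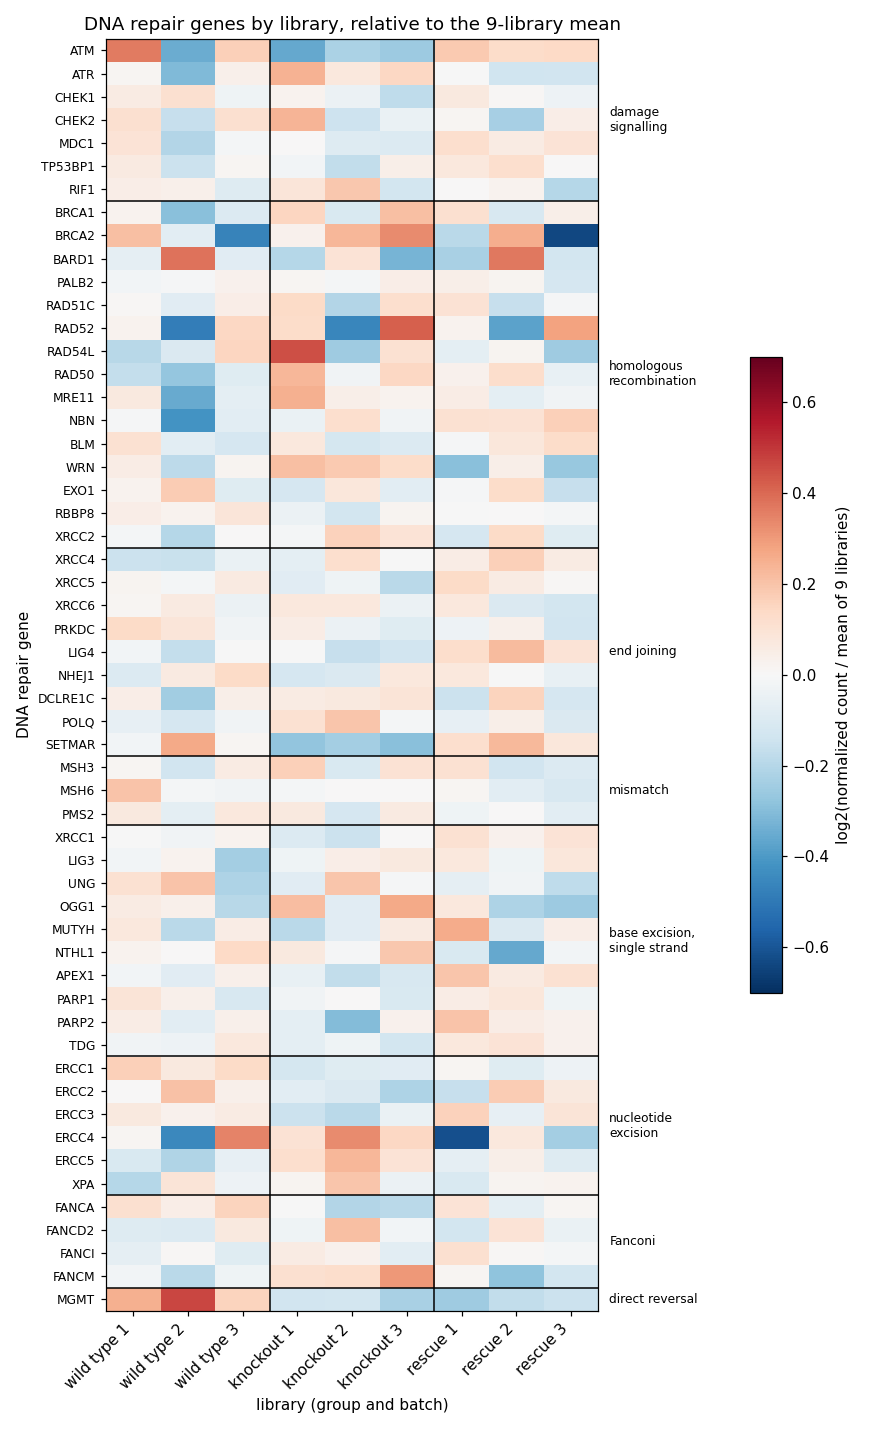
Deviation of each repair gene from its mean over the 9 libraries (log2 units, color scale from -0.7 to 0.7), with rows by repair role and columns by group and replicate. Most cells are pale, and the columns of batch 2 stand out for BARD1, BRCA1 and RAD52.

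Batch 2 was set against batches 1 and 3, with the group as a term. Of the 55 genes, 2 were higher and 4 lower in batch 2, where 5.30% and 5.02% of all genes were, 10.3% in all. Mean normalized counts in batches 1, 2 and 3 were 1852, 2528 and 1836 for BARD1 (log2 difference 0.345, adjusted p = 0.00209) and 5103, 5711 and 4852 for EXO1 (0.175, adjusted p = 0.0190). They were 4682, 3906 and 4557 for BRCA1 (-0.21, adjusted p = 0.0107) and 484, 343 and 566 for RAD52 (-0.28, adjusted p = 0.00394). CHEK2 and RAD51C were also lower, by -0.18 and -0.16 (adjusted p = 0.0346 and 0.0361). On the deposited log2 scale BARD1 and RAD52 thus differed more between batches than any repair gene did between knockout and wild type. That scale understates changes of genes with few counts, such as MGMT, whose mean count was 1.37-fold lower in the knockout. None of the 6 batch genes was called in a genotype comparison in limma without the block. Across the 55 genes, the median coefficient of variation within a group was 7.56% in wild type, 6.81% in knockout and 5.57% in rescue, against 7.96%, 6.14% and 6.04% among the genes at or above the lowest member's level.

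**Figure D5:**
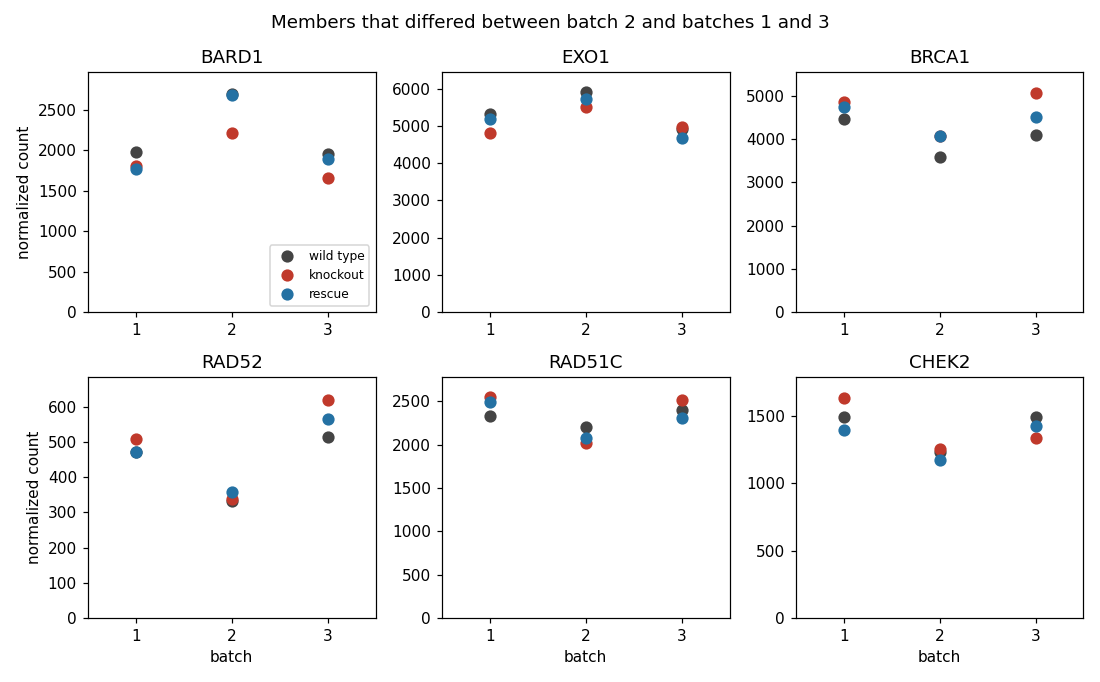
Normalized counts of the 6 repair genes that differed in batch 2, by batch, with a point per library colored by group. BARD1 and EXO1 are high and RAD52, BRCA1, CHEK2 and RAD51C low in batch 2 in all 3 groups.

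Of 101 further genes of the same pathways, 100 passed the filter. In knockout against wild type 3 were higher (among them RAD51D, a gene of homologous recombination, 1.28-fold, and GTF2H3, a TFIIH subunit, 1.245-fold) and 1 was lower. These are 4% of the 100, against 12.7% of all genes tested. The lower gene was MAD2L2, part of the shieldin complex and of translesion polymerase zeta. MAD2L2 was at 2936, 3352 and 2883 normalized counts in wild type, 1687, 1685 and 1732 in knockout and 3024, 3247 and 3244 in rescue, and the knockout did not overlap either group. Its difference was -0.65 ± 0.06 (SE, adjusted p = 2.28e-05) and 0.69 for rescue against knockout (adjusted p = 9.05e-06), larger than in any of the 55 members, and both calls held in limma under all 21 alternatives. The RAD51D call was lost with only the groups compared, without wild-type library 1 or knockout library 2 or 3 and without any batch (adjusted p from 0.00874 to 0.192), and the GTF2H3 call without batch 1 (adjusted p from 0.00275 to 0.144). Rescue against knockout called 5 higher and 8 lower of the 100 (13%, against 22.1% of all genes). DNA2, SLX4, MAD2L2, POLB and UBE2T were higher. WEE1, XRCC3, RPA2, XPC, DDB2, GTF2H3 and REV3L were among the lower. POLB, the gap-filling polymerase after APEX1, was 1.44-fold higher (0.35, adjusted p = 0.00344), a call lost without batch 1. The calls for DDB2 and GTF2H3 in this comparison also held under all 21 alternatives, and each of the other 8 named with no value was lost without batch 1 and batch 3 in turn, and also without single libraries. Rescue against wild type called DDB2, the ultraviolet damage sensor, lower, at 2046 ± 291 in wild type, 2126 ± 96.2 in knockout and 1371 ± 79.0 in rescue (-0.41, adjusted p = 0.00891). DDB2 was the only gene of the 100 called there (1%, against 4.07% of all genes). Its call was lost in limma when any whole batch was left out (adjusted p up to 0.117). With the block limma called 8 higher and 4 lower, 7 higher and 11 lower, and 1 higher and 5 lower of the 100 in the 3 comparisons. Over all genes the blocked shares were 21.5%, 31.2% and 8.06%. Of the genes named here the block added WEE1 as higher and DNA2 and POLB as lower in knockout against wild type (adjusted p = 0.0291, 0.0199 and 0.0136 in limma), and XPC and REV3L as lower in rescue against wild type (adjusted p = 0.0364 and 0.0428). In knockout against wild type DNA2 was also called without knockout library 2 or batch 2, and POLB without wild-type library 2.

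Many repair genes are transcribed more in dividing cells, so cell cycle genes were measured beside them. Summed counts of 24 S phase genes were 233239 to 277434 in wild type, 236700 to 253145 in knockout and 236933 to 258052 in rescue libraries. Sums of 20 G2 and mitosis genes were 179001 to 214126, 205245 to 214320 and 203913 to 217354. The groups overlapped in both sums. In knockout against wild type 17 of the 24 S phase genes had a negative difference (median -0.06). In the same comparison 15 of the 20 G2 and mitosis genes had a positive one (median 0.085). In rescue against wild type these counts were 21 (median -0.05) and 18 (median 0.09). In rescue against knockout they were 13 (median -0.01) and 10 (median 0.00). The part of these cell cycle genes in the repair gene values was not tested. Of the S phase genes 1 was lower in the knockout and 2 higher in the rescue than in the knockout, and none was called between rescue and wild type. With the block, limma called 5 lower, 3 higher and 5 lower, and 2 lower in these comparisons. Of the G2 and mitosis genes 1 was higher in the knockout, 1 was higher and 2 lower in the rescue than in the knockout, and none was called between rescue and wild type. With the block these were 2 higher, 1 higher and 3 lower, and none. Over all genes tested 12.7%, 22.1% and 4.07% were called in the 3 comparisons, and 21.5%, 31.2% and 8.06% with the block.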

How the data were processed

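RNA from 9 libraries of the Z138 line (3 groups, each with 1 library per batch) was measured per gene. Per the submitters' processing notes, the build was GRCh38.p13 and the tools DESeq2 1.24.0, R 4.3.2, kallisto 0.46.1, Trimmomatic 0.40 and FastQC 0.11.9. The labels' protocols name 2 library kits and both paired and single reads; the sources used here do not say which library had which. The authors deposited 1 table of log2-scale values per gene and library. Its name says log CPM, but its values have the form of variance-stabilized counts: they share a lowest value, and under 1 curve (constant 388) they turn back into multiples of 1 read for 82.5% to 98.4% of low values of single-transcript genes (tolerance 0.05, where chance gives 10%). This curve gave the normalized counts, CPM and the estimated depth. A difference on this log2 scale understates the change of genes with few counts, so folds are ratios of mean normalized counts.

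The test was planned for log2 values and run as planned: limma 3.58.1 in R 4.3.3, with a trended prior variance, all 9 libraries and 1 mean per group, over genes that reached a CPM of 1 in 3 or more libraries, and Benjamini-Hochberg adjustment at 0.05. Libraries with the same batch number deviated together (correlations 0.187 to 0.51, against at most 0.159 for other numbers), and the batch label crosses the groups, so the number pairs the libraries, and the blocked value is given where it changes a call. The alternatives were the block, other filters, scalings and variance priors, log2(CPM + 1), fits of only the groups compared, and each library and batch left out.

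Every one of the 55 members may be named. Values per library are given for SETMAR, the called members, and the highest and lowest members by level, as well as for others near a threshold or moving with batch, which were picked after their values were seen. The members and all gene lists were chosen with earlier results of these data known. Nothing says whether the libraries came from separate cultures, so p-values measure only the spread between these libraries, which may be technical. Gene positions and transcript lengths come from GENCODE 29, promoters from RefSeq on GRCh38.p14. Of the 55 members, 34 share exon sequence with another gene (29 on the other strand, 8 on the same), where counts can be split. Some genes of the further lists are not reported here. Figures used matplotlib 3.10.9.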

Additional observations from a re-analysis of the deposited data

How the results depend on the processing

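No called result changed direction in any of the 21 alternatives, and no called repair gene kept its call in all of them. With the replicate block, which the shared batch numbers allow, the knockout against wild type gave 1172 genes higher and 1309 lower over all genes and 4 and 5 repair genes. The block gave 5 higher and 4 lower repair genes in rescue against knockout, and 493 higher and 437 lower genes overall in rescue against wild type. With only the groups compared, 1 repair gene was higher and 1 lower in the knockout, 2 were lower in rescue against knockout, and 173 genes overall were higher and 0 repair genes lower in rescue against wild type. In rescue against knockout, 2 repair genes were lower under the stricter filter (CPM of at least 4), median centring, a constant and a robust prior variance and quantile normalization, which also gave 4 higher: FANCM joined WRN, since its adjusted p of 0.05004 lay at the threshold. The level ratio of the highest to the lowest repair gene was 425 with median in place of longest transcript lengths.

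With single libraries left out in turn, knockout against wild type gave 364 to 571 genes higher and 574 to 826 lower over all genes, rescue against knockout 977 to 1516 and 761 to 1454, and rescue against wild type 118 to 231 and 112 to 196. Without batch 1, 2 or 3, the same counts were 188, 485 and 198 higher and 387, 779 and 376 lower, then 738, 1195 and 603 higher and 429, 961 and 390 lower, then 83, 134 and 51 higher and 63, 115 and 60 lower. Over both kinds of omission, repair genes numbered 0 to 2 higher and 0 to 2 lower in the first comparison, 0 to 4 and 0 to 3 in the second, and 0 and 0 to 1 in the third. Fewer libraries enter these fits. No repair gene was below 299 normalized counts in any library, a level that ERCC4 reached in the rescue.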

Other observations

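The cytidine deaminases, which make the uracil that UNG removes, were called in larger numbers than the repair genes, and UNG itself was not called. Of 8 genes listed, 6 passed the filter on low values. In knockout against wild type 5 of the 6 were higher: APOBEC3C (3262 ± 417 to 7349 ± 153 normalized counts, SD, n = 3, 2.25-fold, adjusted p = 7.73e-06 in limma), APOBEC3D (86.3 to 291), APOBEC3F (73.0 to 171), APOBEC3G (746 to 1900) and APOBEC3H (61.0 to 189). All 5 of these calls held under all 21 alternatives. APOBEC3B, at 760 ± 97.4 and 751 ± 76.4, was not called. These genes lie in 1 cluster and resemble each other in sequence, so their counts may be shared.

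In the rescue, APOBEC3C (mean 4706), APOBEC3D (219) and APOBEC3H (75.3) were lower than in the knockout, and APOBEC3B (1104) was higher. The APOBEC3D call was lost without most single libraries and without any batch (adjusted p from 0.0102 to 0.192), and the APOBEC3B call without batch 3. APOBEC3G, at 1539, was called lower than in the knockout with the replicate block (adjusted p = 0.00523 in limma, 0.0575 without it), under median centring and without wild-type library 1. APOBEC3B, C, D, F and G were higher in the rescue than in wild type, by 1.45-, 1.44-, 2.53-, 3.04- and 2.06-fold in mean normalized count. Of these the APOBEC3B call was lost in 11 of the 21 alternatives, and the APOBEC3C call without batch 2 or 3.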
